A study of Mus musculus with 2 samples.

Results

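Tet1, Tet2, Tet3, Dnmt1, Dnmt3a and Dnmt3b, the genes of the enzymes that remove and place DNA methylation, were followed across gingival cells of mice with experimental periodontitis. They were taken by name and are 6 of the 32285 genes in the count tables, and UMIs of all 6 were found in both libraries. Gum tissue came from recipients of bone marrow transplantation (BMT) named 10% Tet2-/- BMT and 10% Tet2+/+ BMT. By the labels 10% is a percentage of the marrow, so a group name does not give the genotype of each cell. Both groups were taken 12 weeks after the transplant and after 5 days of ligature-induced periodontitis, in which a thread tied around a tooth brings on gum inflammation. The sort was for CD45.2+CD11b+ cells in 10% Tet2-/- BMT and for CD45+CD11b+ cells in 10% Tet2+/+ BMT by the protocol, while both sample titles name CD45.2+CD11b+. The labels give neither the age or strain of the mice, nor how many were pooled, nor which part of Tet2 is deleted. Each group is 1 library, so variation from mouse to mouse is unknown, no test is given, and all intervals are exact 95% intervals for counting error only.

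DNA methylation sits mainly on cytosines that stand before a guanine (CpG). Dnmt3a and Dnmt3b encode the de novo methyltransferases, and Dnmt1 encodes the maintenance enzyme, which copies the pattern onto the new strand behind the replication fork and is brought there by Uhrf1, a protein that reads half-methylated CpG. The TET proteins are iron- and 2-oxoglutarate-dependent dioxygenases that oxidise methylated cytosine, a first step of demethylation. TET2 and DNMT3A are best known in blood cells as genes whose loss lets a haematopoietic clone expand.

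The genes lie on 6 chromosomes of mm10. Tet1 (ENSMUSG00000047146) spans chr10:62804570-62908996, Tet2 (ENSMUSG00000040943) chr3:133463679-133545139, Tet3 (ENSMUSG00000034832) chr6:83362373-83459084 and Dnmt1 (ENSMUSG00000004099) chr9:20907209-20959888, all on the minus strand. Dnmt3a (ENSMUSG00000020661) spans chr12:3806007-3914443 and Dnmt3b (ENSMUSG00000027478) chr2:153649450-153687730, both on the plus strand.

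Dnmt1 and its partner Uhrf1 were high in the same cycling clusters, as described later, and the stretch before a start site of each is shown for that reason. RefSeq's promoter table for GRCm38.p6 holds all 6 genes, with 10 starts among them. It was searched on both strands for TTTNGCGC (GCGCNAAA on the opposite strand), a common form of the E2F motif, which is known from promoters of replication genes. The match stands in capitals, and both sequences are printed 5' to 3' on the strand of the gene, from 250 bases before the start up to the start.
Dnmt1, chr9:20952624-20952873, minus strand: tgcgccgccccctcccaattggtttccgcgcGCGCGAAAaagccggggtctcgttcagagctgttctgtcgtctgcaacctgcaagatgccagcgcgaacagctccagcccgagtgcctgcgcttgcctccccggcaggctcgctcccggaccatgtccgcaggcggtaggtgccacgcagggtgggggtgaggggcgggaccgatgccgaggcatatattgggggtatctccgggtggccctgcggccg
Uhrf1, chr17:56304063-56304312, plus strand: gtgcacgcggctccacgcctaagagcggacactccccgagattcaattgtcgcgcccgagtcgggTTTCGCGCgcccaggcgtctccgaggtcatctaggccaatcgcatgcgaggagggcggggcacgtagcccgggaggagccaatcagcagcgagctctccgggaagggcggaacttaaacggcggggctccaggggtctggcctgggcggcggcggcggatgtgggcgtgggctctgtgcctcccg
A second match of Dnmt1, TTTGGCGC, begins 33 bases after this start. These letters occur in 1.38% of the 32851 promoters of the table. Among the 6 genes they were found in 1, Dnmt1, at 1 of its 3 annotated starts, and Uhrf1 holds them at 1 of its 2. For Dnmt1 it is the start furthest into the gene. Both printed stretches lie inside the annotated span of their gene, chr17:56303321-56323486 for Uhrf1, and downstream of another annotated start. They can therefore hold transcribed or coding sequence, and distances are counted from the start used only. A match is a description of letters, and a count of transcript 3' ends does not show which start a transcript used.

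The 10% Tet2-/- BMT library had 9596 cells kept and 85289763 UMIs in them, and the 10% Tet2+/+ BMT library 11672 cells and 87908757 UMIs, with medians of 5920 and 5009 UMIs per cell. The libraries share 31 cell barcodes. Classes come from clusters named by lists of marker genes, and clusters are called here by their leading gene. B cell-like (350 and 564), T cell-like (205 and 332) and NK cell or ILC-like cells (82 and 167) were present although the sort was for CD11b+. Sex-chromosome transcripts set the libraries apart: cells with Xist and no Y-linked UMI made up 45.0% of the first library and 0.0257% of the second, and cells with Y-linked UMIs and no Xist 5.76% and 59.0%. Transplant genotype and cell sex cannot be told apart between the libraries, nor can the sort if it differed as the protocol gives it. No file marks which cells descend from the 10% Tet2-/- marrow.

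Of the 6 genes, Tet2 gave the highest level over all kept cells. It stood at 97.8 CPM (counts per 1000000, the gene's UMIs over all UMIs of the class and library; 95.7 to 99.9) in 10% Tet2-/- BMT and 81.7 CPM (79.8 to 83.6) in 10% Tet2+/+ BMT, rank 1313 of 20794 and rank 1564 of 21237 detected genes by UMIs. Tet3, Dnmt1 and Dnmt3a followed at 40.3, 41.2 and 23.0 CPM in the first library and 44.0, 28.9 and 23.2 CPM in the second. Tet1 stood at 1.16 and 0.660 CPM and Dnmt3b at 1.07 and 1.26 CPM. The counts are of 3' ends and do not grow with transcript length, but priming can differ between genes. A cell with no UMI of any of the 6 was common, at 37.4% and 43.1% of kept cells, and 16.9% and 14.9% had UMIs of exactly 2 of the genes.

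**Figure D1:**
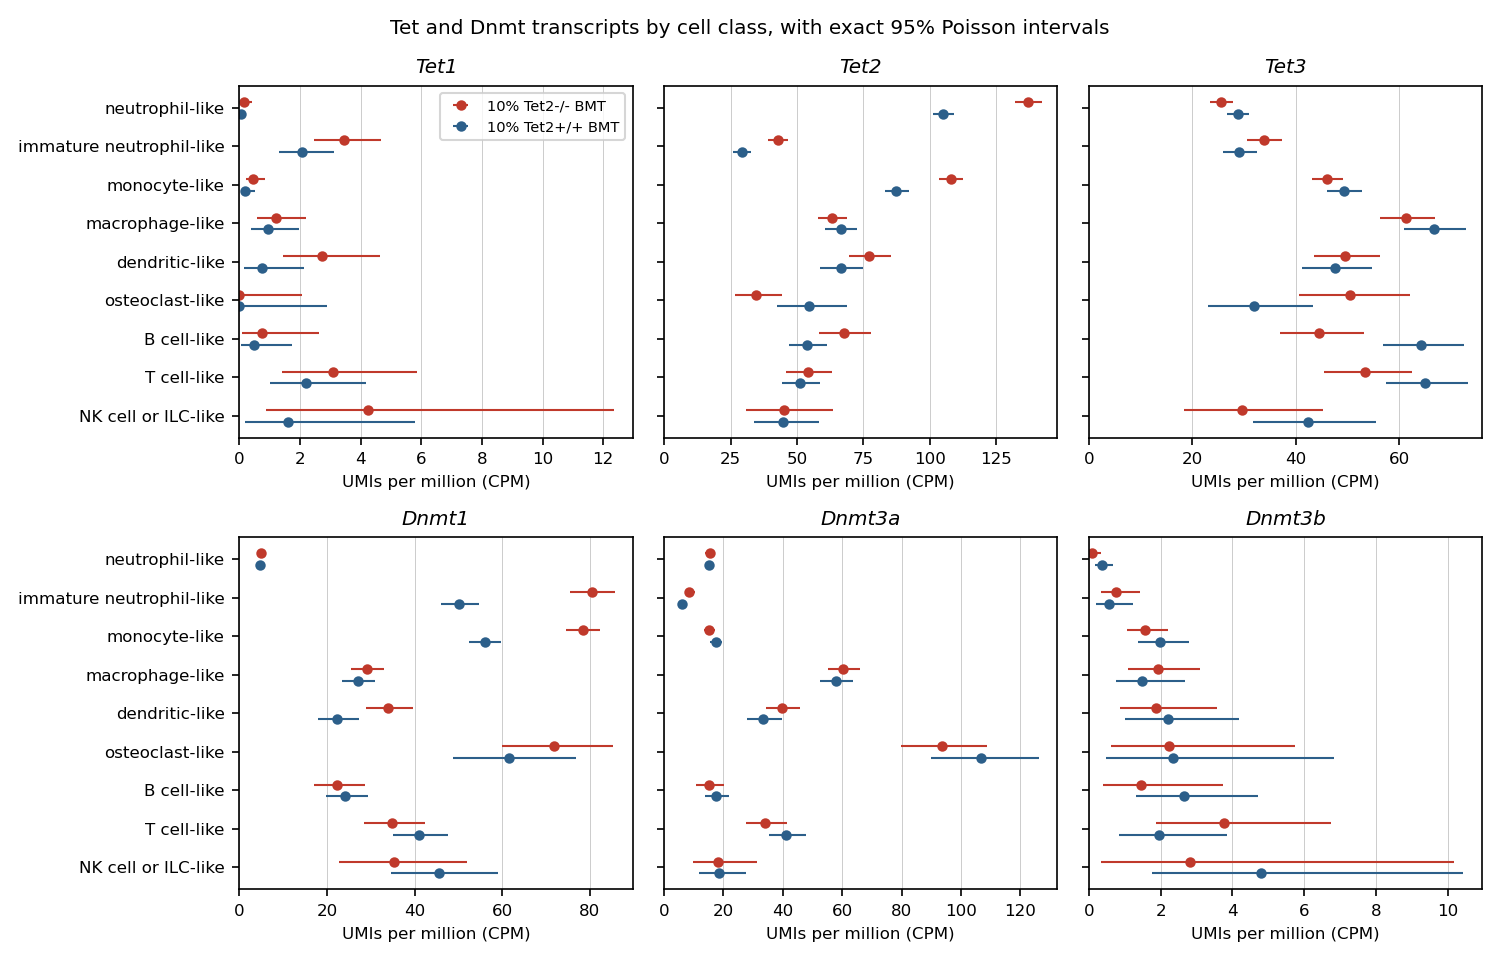
Level of each gene (x axis, CPM, each panel on its own scale from 0) in 9 cell classes, with 1 point per library and exact 95% Poisson intervals as bars. Tet2 is highest in neutrophil-like cells at 137 and 105 CPM, Dnmt1 is at 4.87 and 4.66 CPM there, and Dnmt3a is highest in osteoclast-like cells at 93.6 and 107 CPM.

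Among the 8 classes with 50 cells or more in both libraries, Tet2 took its highest share of UMIs in neutrophil-like cells. Monocyte-like cells were next, with intervals apart from these in both libraries, and Tet2 was low in immature neutrophil-like cells. In neutrophil-like cells it stood at 137 CPM (132 to 142) in 10% Tet2-/- BMT and 105 CPM (101 to 109) in 10% Tet2+/+ BMT. Monocyte-like cells had 108 and 87.4 CPM, dendritic-like cells 77.1 and 66.4 CPM, B cell-like cells 67.5 and 53.7 CPM and macrophage-like cells 63.3 and 66.4 CPM. T cell-like cells had 54.1 and 51.2 CPM and NK cell or ILC-like cells 45.1 and 44.8 CPM. Immature neutrophil-like cells, which carry transcripts of granule proteins, had 42.9 CPM (39.2 to 46.7) and 29.2 CPM (26.0 to 32.6). The order of dendritic-like, macrophage-like and B cell-like cells was not the same in both libraries. The level in neutrophil-like cells was 3.20-fold (2.91 to 3.52) and 3.60-fold (3.20 to 4.06) that of immature neutrophil-like cells, so both libraries gave the same direction. A level is a share of UMIs and not a number of transcripts per cell. Tet2 UMIs numbered 2930 and 2661 in 4411 and 5280 neutrophil-like cells, and 511 and 311 in 685 and 634 immature neutrophil-like cells. In 1229 and 1180 monocyte-like cells they numbered 2148 and 1454. Osteoclast-like cells, the bone-resorbing type, rest on 38 and 26 cells and had 34.8 CPM (26.6 to 44.6) and 54.6 CPM (42.6 to 69.0).

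Within the neutrophil lineage, the 9 named clusters ranged in Tet2 from those led by granule genes to those led by inflammatory genes. The cluster led by Elane, a neutrophil elastase gene of primary granules, had 40.1 CPM in 10% Tet2-/- BMT and 27.1 CPM in 10% Tet2+/+ BMT. The immature cluster led by Ltf, which encodes lactoferrin of secondary granules, had 48.4 and 31.0 CPM, and the cluster led by Mmp8, a collagenase gene, 44.1 and 33.6 CPM. These clusters were the lowest of the 9 in both libraries. A further cluster led by Ltf, left unnamed because its top genes held more markers of another list, had 100.1 and 64.8 CPM, above the named one and outside that order. Levels in the clusters led by Retnlg, Jaml and Csf3r, the last encoding the receptor for granulocyte colony-stimulating factor, were 57.1 and 42.3, 98.5 and 80.8, and 159 and 147 CPM in that order. The cluster led by Rsad2, with other interferon-stimulated genes such as Ifit1 and Isg15 behind it, had 191 and 132 CPM, and the cluster led by the chemokine gene Ccl3 had 212 and 181 CPM. The highest was the cluster led by Acod1, which encodes the itaconate-making enzyme and is followed by the chemokine gene Cxcl2, at 294 and 264 CPM. Its 866 and 640 cells held 1046 and 675 Tet2 UMIs, at median depths of 3675 and 3660.5 UMIs. The 329 and 198 cells of the cluster led by Elane held 319 and 133, at median depths of 24848 and 25674.5 UMIs. The clusters were not placed in time, and their order here is by leading genes. The unnamed cluster led by Siglecf had 139 and 122 CPM.

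**Figure D2:**
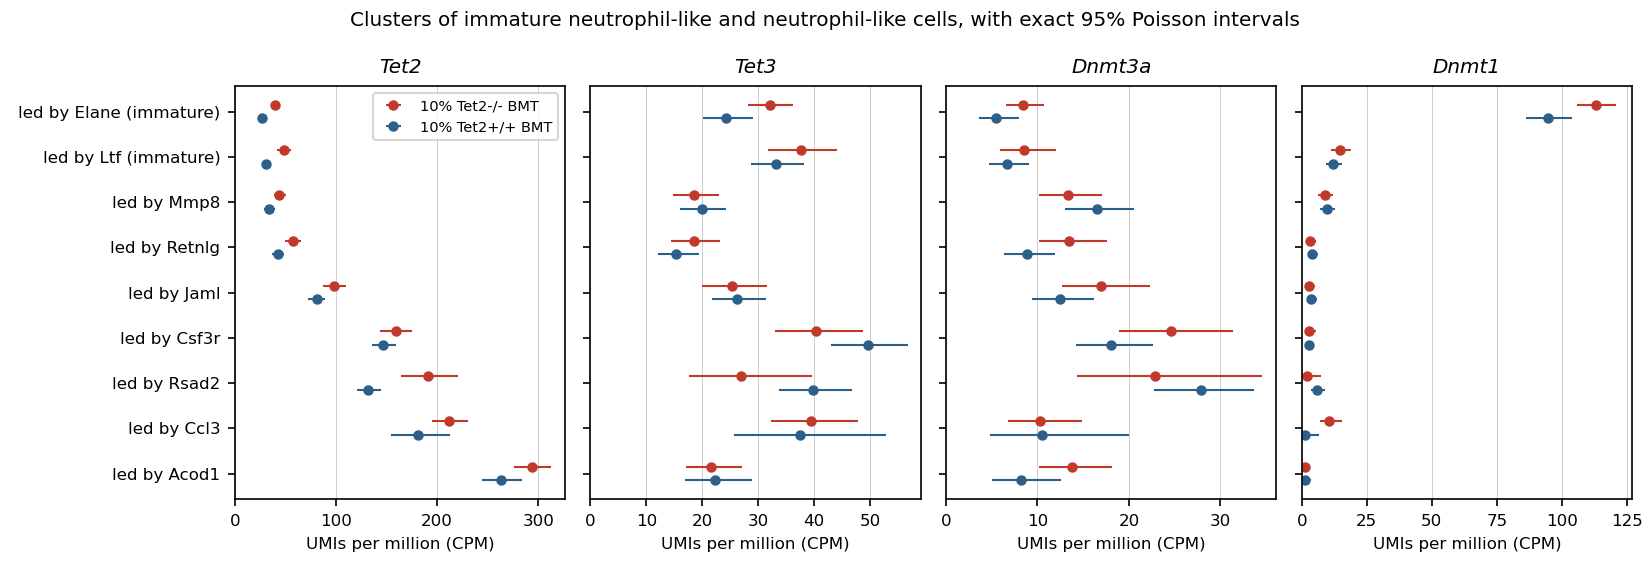
Levels of Tet2, Tet3, Dnmt3a and Dnmt1 (x axis, CPM from 0) in the 9 clusters of immature neutrophil-like and neutrophil-like cells, named by leading gene, with 1 point per library and exact 95% Poisson intervals. Tet2 runs from 40.1 and 27.1 CPM in the cluster led by Elane to 294 and 264 CPM in the cluster led by Acod1, while Dnmt1 is at 113 and 94.8 CPM in the former and at 1.41 and 1.17 CPM in the latter.

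Shares of cells with a Tet2 UMI depend on depth, and their order was not that of the levels. Unthinned, 39.7% and 33.2% of neutrophil-like cells and 74.7% and 64.0% of monocyte-like cells had a Tet2 UMI, at median depths of 4100 and 3994 UMIs in the former and 13412 and 12202.5 in the latter. With every cell thinned to 1000 UMIs, the shares were 13.9% (12.8 to 14.9) and 11.2% (10.4 to 12.1) in neutrophil-like cells, 10.0% and 10.3% in monocyte-like cells, and 3.46% and 3.51% in immature neutrophil-like cells. After thinning, neutrophil-like cells were thus above immature neutrophil-like cells in both libraries, as they were by level. Barcodes with 1 to 50 UMIs, which hold free RNA, gave Tet2 at 70.0 CPM (59.6 to 81.6) and 66.6 CPM (56.0 to 78.6). Macrophage-like, dendritic-like, B cell-like, T cell-like, NK cell or ILC-like and immature neutrophil-like cells were not above it beyond the intervals in both libraries, whereas neutrophil-like and monocyte-like cells were.

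Tet2 was higher in 10% Tet2-/- BMT than in 10% Tet2+/+ BMT in neutrophil-like, immature neutrophil-like and monocyte-like cells, by less than 1.5-fold in each. The size rule asked for more than 1.5-fold on log2(CPM + 10) in genes with 50 CPM in either library and 100 UMIs over both, called eligible. Over all kept cells 3.15% of the 2669 eligible genes passed it, and of the 6 genes only Tet2 was eligible and it did not pass. The ratio of neutrophil-like cells was 1.30 (1.24 to 1.38), or 0.35 on the log2 scale with the pseudocount, in a class where 4.57% of eligible genes passed the rule. In immature neutrophil-like cells it was 1.47 (1.27 to 1.7), and in monocyte-like cells 1.24 (1.16 to 1.32). With cells thinned to 1000 UMIs the log2 ratios were -0.018 and -0.013, so the sign turned in both. In immature neutrophil-like cells Tet2 was not eligible, at 42.9 and 29.2 CPM, and Y-carrying cells, 10 of them in 10% Tet2-/- BMT, gave -0.014. Subtracting free RNA of barcodes with 1 to 50 and with 51 to 200 UMIs gave 1.07 and 1.32 there. These rest on what was left, 33.1 against 10.5 CPM and 23.25 against 3.32 CPM, below the 50 CPM of the rule. The subtraction took 24.9% and 36.4% of UMIs in 10% Tet2-/- BMT and 32.6% and 48.2% in 10% Tet2+/+ BMT. In place of 0.43, immature neutrophil-like cells had 0.29 with TMM scaling, 0.19 with libraries clustered alone and 0.24 as a mean of per-cell CPM. The median of all eligible genes was 0.16 in that class. In monocyte-like cells clusters weighted alike gave 0.39 in place of 0.28, and leaving out the cycling cluster 0.38. Y-carrying cells gave 0.14 there and subtracting free RNA of barcodes with 51 to 200 UMIs 0.19. The ratio was 1.16 (0.990 to 1.36) for dendritic-like cells and for macrophage-like cells 0.953 (0.841 to 1.08). T cell-like cells, where 3.14% of eligible genes passed, had 0 of 2 eligible genes of the 6 past the rule, and NK cell or ILC-like cells, where 5.81% passed, had 0 eligible. Of 25 clusters with 50 cells or more in both libraries, 22 had a Tet2 ratio above 1 and 12 an interval wholly above 1, with a median ratio of 1.22. All 9 clusters of the neutrophil lineage and all 3 monocyte-like clusters were among the 22. The highest ratio was 1.68 (1.34 to 2.12) in the unnamed cluster led by Arg1, at 150 against 89.5 CPM on 538 and 90 UMIs. Ratios above 1 were found in 7 of the 25 clusters for Tet3, 11 for Dnmt1 and 14 for Dnmt3a. All clusters come from the same 2 libraries, so these counts are not repeats of the comparison. The deleted part of Tet2 is not in the labels, and a 3' assay can still count a transcript that lost inner exons. The levels were therefore not used to check the deletion, and its part in them was not tested.

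The Tet2 ratio of neutrophil-like cells changed with the weighting of clusters and with the choice of cells by sex-linked UMIs. The Tet2-rich clusters led by Acod1 and Ccl3 made up 19.6% and 14.4% of neutrophil-like cells in 10% Tet2-/- BMT and 12.1% and 4.03% in 10% Tet2+/+ BMT. The cluster led by Rsad2 made up 5.60% and 17.3%. With clusters weighted alike in both libraries the log2 ratio was 0.24, at 132.5 and 111 CPM, in place of 0.35. Neutrophil-like cells with Xist and no Y-linked UMI in 10% Tet2-/- BMT (1053 cells) had 101 CPM (93.7 to 109.5) and those with Y-linked UMIs alone in 10% Tet2+/+ BMT (2870 cells) had 102 CPM (96.6 to 107), a log2 ratio of -0.004. With clusters also weighted alike that comparison gave 0.20, at 129 and 111 CPM. Y-carrying cells alone, 179 in 10% Tet2-/- BMT, gave 159 against 102 CPM, a log2 ratio of 0.60. Xist-carrying cells were 23.9% of the class in that library and 71.7% had no UMI of either kind, so the typed cells are a minority there. Typing needs a Xist or Y-linked UMI and so depends on a cell's depth. The part of cell sex in the ratio was not tested.

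**Figure D3:**
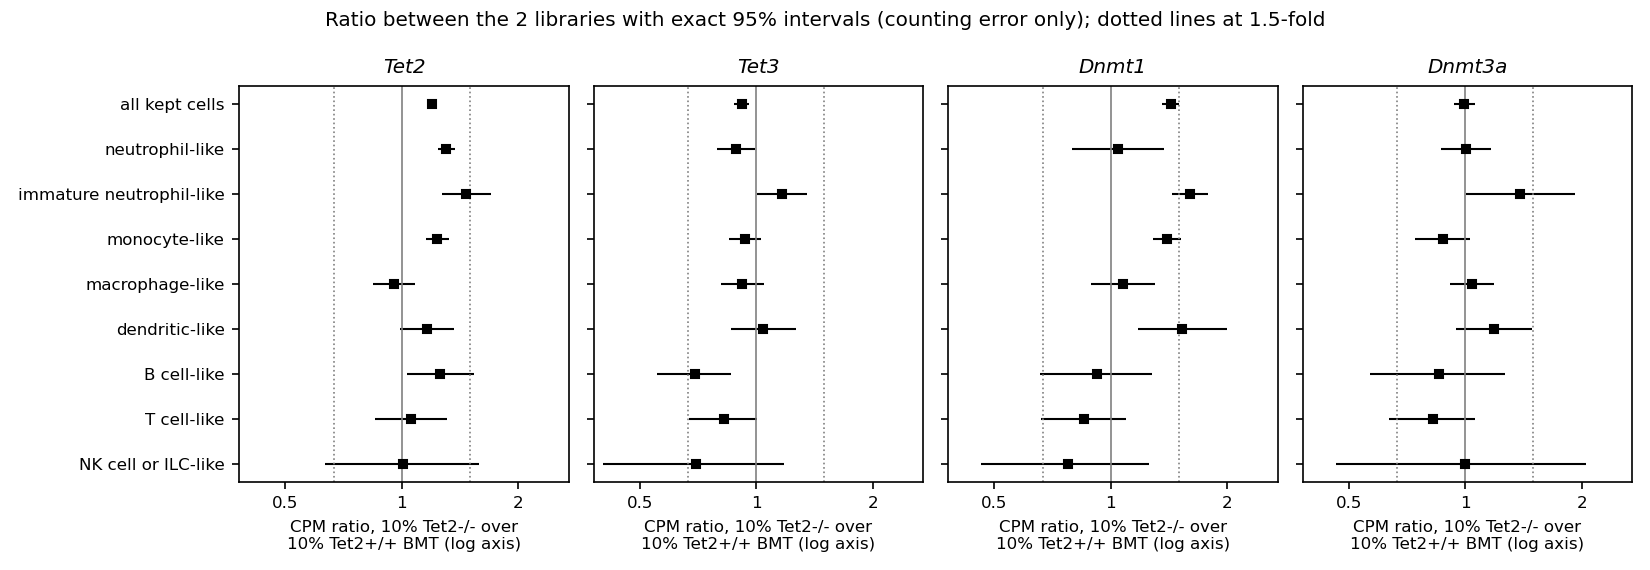
Ratio of CPM of 10% Tet2-/- BMT over 10% Tet2+/+ BMT (x axis, log scale, no pseudocount) for the 4 genes with most UMIs, over all kept cells and in 8 classes, with exact 95% intervals for counting error and dotted lines at 1.5-fold. Tet2 lies at 1.30 in neutrophil-like and 0.953 in macrophage-like cells, and Dnmt1 at 1.60 in immature neutrophil-like cells.

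Tet3 had another distribution, with its higher levels outside neutrophils. It stood at 61.4 CPM (56.2 to 67.0) and 66.7 CPM (60.9 to 72.9) in macrophage-like cells, 53.4 and 65.0 CPM in T cell-like cells, 49.6 and 47.6 CPM in dendritic-like cells and 46.0 and 49.4 CPM in monocyte-like cells. Neutrophil-like cells were lowest at 25.6 and 28.8 CPM, in 10% Tet2+/+ BMT together with immature neutrophil-like cells at 29.1 CPM, and near the 24.2 and 32.4 CPM of free RNA. Macrophage-like cells had 2.40-fold (2.12 to 2.71) and 2.31-fold (2.06 to 2.60) the level of neutrophil-like cells. In macrophage-like cells the intervals of Tet3 and Tet2 overlapped in both libraries, and in neutrophil-like cells Tet2 was far above Tet3. Among the lineage's clusters, Tet3 ranged only from 18.5 to 40.3 CPM in 10% Tet2-/- BMT and from 15.4 to 49.6 CPM in 10% Tet2+/+ BMT, without the climb that Tet2 made towards the cluster led by Acod1.

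The ratio of Tet3 between the libraries was on either side of 1 among myeloid classes and below 1 in B cell-like cells. It was 0.888 (0.793 to 0.993) in neutrophil-like, 0.932 (0.847 to 1.03) in monocyte-like, 0.921 (0.812 to 1.04) in macrophage-like and 1.04 (0.859 to 1.27) in dendritic-like cells. In neutrophil-like cells the log2 value of -0.13 became 0.00 with TMM scaling and 0.02 with median-of-ratios scaling, so its sign depends on the scaling. The ratio was 1.16 (1.00 to 1.36) in immature neutrophil-like cells, at 33.9 against 29.1 CPM, and its log2 value of 0.17 became 0.03 with TMM scaling. With libraries clustered alone it was -0.091, so the sign turned. Subtracting free RNA of barcodes with 1 to 50 and with 51 to 200 UMIs gave 0.36 and 0.50, and Y-carrying cells of both libraries gave 0.35. Osteoclast-like cells had 50.5 against 32.0 CPM, a ratio of 1.58 (1.08 to 2.34) on 90 and 41 UMIs, which at 0.53 on the log2 scale with the pseudocount was within 1.5-fold. B cell-like cells had 44.5 CPM (37.0 to 53.2) against 64.3 CPM (56.8 to 72.5), a ratio of 0.693 (0.555 to 0.861), which stayed within 1.5-fold on the log2 scale with the pseudocount at -0.45. There 0 of the 2 eligible genes, Tet2 and Tet3, passed the size rule, and 2.40% of all eligible genes did. Of its clusters, that led by Cd79a had 42.1 against 69.8 CPM, and that led by Ebf1 46.8 against 58.8 CPM with a ratio interval of 0.582 to 1.08.

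Tet1 was scarce everywhere. Its 99 and 58 UMIs over all kept cells included 40 and 16 UMIs from the cluster led by Elane, which had 5.03 CPM (3.59 to 6.84) and 3.26 CPM (1.86 to 5.30). Neutrophil-like cells had 3 and 1 UMIs in 4411 and 5280 cells. In immature neutrophil-like cells the level was 3.44 and 2.07 CPM, with overlapping intervals of 2.47 to 4.67 and 1.29 to 3.13. Osteoclast-like cells had 0 UMIs of Tet1 in both libraries, which allows up to 2.07 and 2.88 CPM by the exact interval.

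Dnmt1 was highest in clusters of more than 1 lineage that carried cell cycle transcripts. The highest levels were in the monocyte-like cluster led by Stmn1, whose leading genes include Top2a and Mki67 of dividing cells, at 163 CPM in 10% Tet2-/- BMT and 171 CPM in 10% Tet2+/+ BMT. The cluster led by Elane followed at 113 and 94.8 CPM, and osteoclast-like cells had 71.8 CPM (59.9 to 85.3) and 61.7 CPM (48.8 to 76.8). The other monocyte-like clusters, led by Fn1 and by Ace, had 26.4 and 23.0 CPM and 17.1 and 20.04 CPM, far below the cycling cluster of the same class. The immature cluster led by Ltf had 14.6 and 12.2 CPM. In neutrophil-like cells Dnmt1 was down to 4.87 CPM (3.98 to 5.90) and 4.66 CPM (3.86 to 5.58), below the free RNA level of 27.7 and 24.3 CPM.

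Other classes lay between. T cell-like cells had 34.9 and 40.9 CPM of Dnmt1, NK cell or ILC-like cells 35.2 and 45.6 CPM, macrophage-like cells 29.1 and 27.0 CPM and B cell-like cells 22.3 and 24.2 CPM. Free RNA of barcodes with 1 to 50 UMIs had 27.7 CPM (21.3 to 35.3) and 24.3 CPM (18.1 to 31.9). Macrophage-like and B cell-like cells lay within these intervals in both libraries, and T cell-like and NK cell or ILC-like cells in 10% Tet2-/- BMT. The monocyte-like clusters led by Fn1 and by Ace lay within or below them. Such levels cannot be told from free RNA. Immature neutrophil-like cells had 16.5-fold (13.5 to 20.4) and 10.8-fold (8.81 to 13.3) the level of neutrophil-like cells. Without the clusters led by Elane and Stmn1, the mean log2 contrast was 0.66 in place of 2.32. The share of cells with a Dnmt1 UMI was 41.8% and 32.5% in immature neutrophil-like cells and 2.04% and 2.08% in neutrophil-like cells. After thinning to 1000 UMIs it was 5.26% (3.69 to 7.24) and 2.55% (1.47 to 4.11) in the former and 0.346% (0.194 to 0.571) and 0.447% (0.283 to 0.669) in the latter.

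Uhrf1, the partner of Dnmt1, was found in the same clusters. It stood at 62.4 CPM (56.9 to 68.2) and 64.5 CPM (56.7 to 73.1) in the cluster led by Stmn1, at 38.1 and 36.7 CPM in the cluster led by Elane, and at 44.3 and 46.8 CPM in osteoclast-like cells. In neutrophil-like cells it was at 0.515 and 0.672 CPM. Across 25 clusters, Dnmt1 followed the summed level of 16 S phase genes, such as Mcm2 and Pcna, with a Pearson r of 0.92 in each library on log2(CPM + 10). Without the clusters led by Stmn1 and Elane, r was 0.84 and 0.83 over 23 clusters. The same r over 25 clusters was 0.86 and 0.84 for Uhrf1, 0.29 and 0.27 for Tet3, 0.13 and 0.21 for Dnmt3a and -0.35 and -0.30 for Tet2. Without the same clusters the r of Dnmt3a was 0.56 and 0.66 and that of Tet3 0.38 and 0.49, so their values over 25 clusters turned on them. These are descriptions across clusters of 1 library, which share depth and free RNA, and Uhrf1 and the S phase genes were not kept out of the clustering as the 6 genes were.

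**Figure D4:**
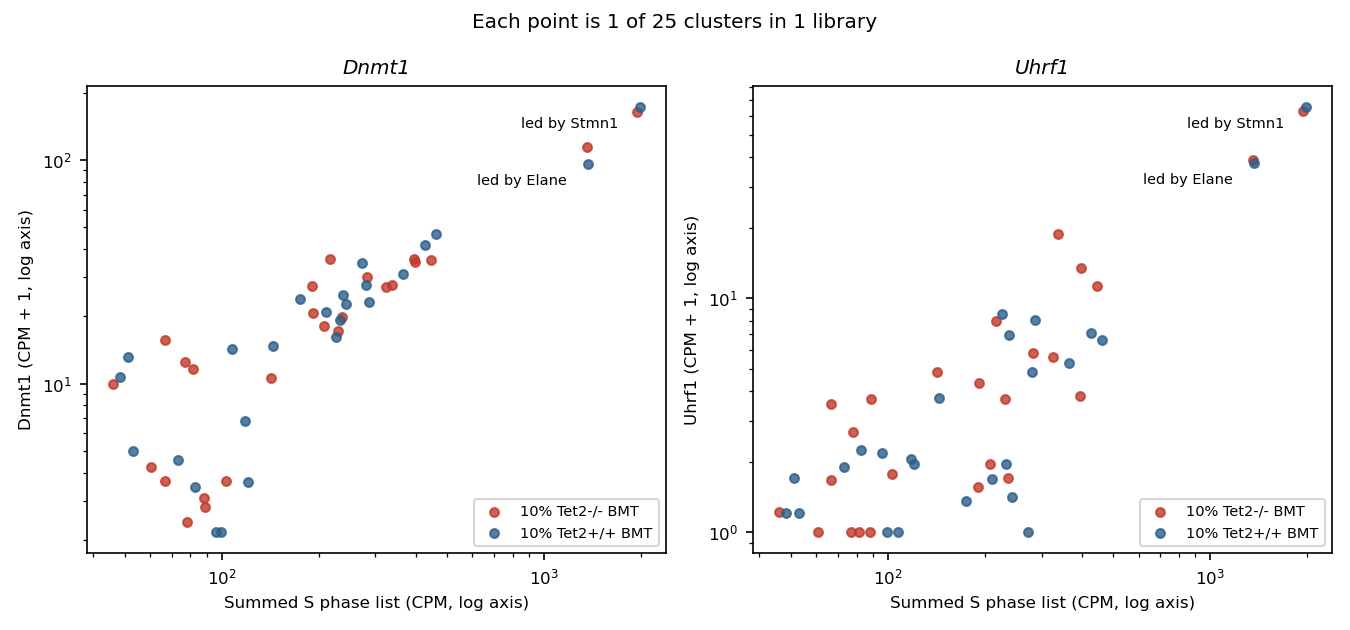
Level of Dnmt1 (left) and Uhrf1 (right) (y axis, CPM + 1, log axis) against the summed level of the S phase genes (x axis, CPM, log axis), with 1 point for each of 25 clusters in each library. The clusters led by Stmn1 and by Elane lie at the upper right in both panels, with Dnmt1 at 163 and 171 CPM and at 113 and 94.8 CPM, and the r of Dnmt1 is 0.92 in each library.

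By class, Dnmt1 gave the only value past the size rule, which was not applied to single clusters. Over the 8 classes with 50 cells or more in both libraries, 12 of 48 pairs of gene and class were eligible and 1 passed: Dnmt1 in immature neutrophil-like cells, at 80.4 CPM (75.4 to 85.7) in 10% Tet2-/- BMT and 50.2 CPM (46.1 to 54.7) in 10% Tet2+/+ BMT. The ratio was 1.60 (1.44 to 1.78), or 0.59 on the log2 scale with the pseudocount, just past the rule, and 5.04% of the 2105 eligible genes passed there in either direction and 4.37% upwards. The 10% Tet2-/- BMT library had more of the class in the cluster led by Elane, at 48.0% of 685 cells against 31.2% of 634. Within that cluster the ratio was 1.19 (1.07 to 1.34) and within the cluster led by Ltf 1.20 (0.833 to 1.73). With clusters weighted alike the log2 ratio was 0.22, and with TMM scaling 0.43, and under either the call was lost. TMM moved the median of all eligible genes by -0.17 in this class, by 0.17 in neutrophil-like cells and by at most 0.03 in the other main classes.

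In monocyte-like cells Dnmt1 stood at 78.5 CPM (74.6 to 82.4) against 56.1 CPM (52.6 to 59.8). The ratio was 1.40 (1.29 to 1.52) and did not pass the rule, which 3.06% of eligible genes did, 1.75% upwards and 1.31% downwards. The cycling cluster led by Stmn1 made up 23.0% of 1229 monocyte-like cells in 10% Tet2-/- BMT and 12.0% of 1180 in 10% Tet2+/+ BMT. Within this cluster Dnmt1 had a ratio of 0.953 (0.866 to 1.05), within the cluster led by Fn1 1.15 (0.945 to 1.39) and within the cluster led by Ace 0.855 (0.597 to 1.21). With clusters weighted alike the levels were 66.8 and 68.3 CPM, a log2 ratio of -0.03, so the sign turned. Dendritic-like cells, a single cluster, had 34.0 CPM (29.0 to 39.6) against 22.2 CPM (17.9 to 27.3), a ratio of 1.53 (1.18 to 2.00) that stayed inside the rule with the pseudocount at 0.45. Their S phase genes summed to 398 against 287 CPM and their G2/M genes to 120 against 132 CPM.

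Among the named classes, Dnmt3a was highest in osteoclast-like and macrophage-like cells. The unnamed cluster led by Hpgds, with 17 and 42 cells, was higher, at 324 and 253 CPM on 10 and 21 UMIs. Tet2 and Tet3 were high in it too, at 454 and 289 CPM on 14 and 24 UMIs and at 259.5 and 253 CPM on 8 and 21 UMIs. Osteoclast-like cells had 93.6 CPM (80.0 to 108.9) and 107 CPM (89.8 to 126.4), where Tet2 had 34.8 and 54.6 CPM. Macrophage-like cells had 60.3 CPM (55.2 to 65.8) and 57.9 CPM (52.5 to 63.7), dendritic-like cells 39.6 and 33.5 CPM and T cell-like cells 33.9 and 41.2 CPM. Neutrophil-like and monocyte-like cells had 15.4 and 15.3 CPM and 15.2 and 17.4 CPM, near the 14.3 and 16.7 CPM of free RNA. Immature neutrophil-like cells were lowest at 8.47 CPM (6.90 to 10.3) and 6.1 CPM (4.71 to 7.78). Macrophage-like cells had 3.93-fold (3.41 to 4.53) and 3.8-fold (3.30 to 4.37) the level of neutrophil-like cells. After thinning to 1000 UMIs, 6.54% (4.79 to 8.68) and 7.37% (5.49 to 9.66) of macrophage-like cells had a Dnmt3a UMI, against 1.43% (1.10 to 1.83) and 1.42% (1.11 to 1.78) of neutrophil-like cells. Among monocyte-like clusters, the cluster led by Ace, with Treml4 and Spn of patrolling monocytes, had 28.2 and 29.3 CPM, against 14.4 and 13.1 CPM in the cluster led by Fn1 and 10.8 and 13.4 CPM in the cycling cluster.

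In the classes with most of its UMIs, the interval of the Dnmt3a ratio between the libraries included 1. The ratio was 1.04 (0.914 to 1.19) in macrophage-like cells and 1.01 (0.866 to 1.17) in neutrophil-like cells. Among the 9 clusters of the neutrophil lineage, 6 had a Dnmt3a ratio above 1, the median was 1.36, and all 9 intervals included 1. With clusters weighted alike, neutrophil-like cells had 16.3 against 14.2 CPM, a log2 ratio of 0.12 in place of 0.01. The log2 ratio was 0.36 with free RNA of barcodes with 51 to 200 UMIs subtracted, at 10.3 against 5.81 CPM. It was 0.235 for Xist-carrying against Y-carrying cells weighted alike. Y-carrying cells of both libraries gave -0.37, at 9.7 against 15.5 CPM, so the ratio moved to either side of 1 with the setting. In macrophage-like cells 0 of the 3 eligible genes, Tet2, Tet3 and Dnmt3a, passed the size rule, which 2.34% of all eligible genes did. The interval of immature neutrophil-like cells, at 1.39 (1.01 to 1.93), rests on 101 and 65 UMIs. The unnamed cluster led by Arg1, with 311 and 79 cells, had 14.8 against 30.8 CPM, a ratio of 0.480 (0.302 to 0.773), on 53 and 31 UMIs. It was the only 1 of 25 clusters whose Dnmt3a interval excluded 1.

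Dnmt3b was as scarce as Tet1. It had 91 and 111 UMIs over all kept cells, and was at 1.56 and 1.98 CPM in monocyte-like cells, 1.92 and 1.5 CPM in macrophage-like cells and 0.0936 and 0.356 CPM in neutrophil-like cells. The intervals of the libraries overlapped in each of these classes, and no difference was detectable at this depth.

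Likeness of pattern was measured as the Pearson r of log2(CPM + 10) over 16 points, the 8 classes in each of the libraries, against 4053 genes. The genes most like Tet2 were Neat1 at 0.94, Ist1 at 0.93 and Sbno2 at 0.93. Those most like Tet3 were Stx4a, Stx16 and Psen2, each at 0.90. For Dnmt1 they were Bub3 at 0.97, Mrpl18 at 0.97 and Alyref at 0.96, and for Dnmt3a Creb5 at 0.96, Cxcl16 at 0.95 and Pmepa1 at 0.95. Between the genes themselves r was 0.73 for Tet3 with Dnmt3a, -0.50 for Tet2 with Dnmt1 and -0.14 for Dnmt1 with Dnmt3a. The 16 points share libraries and free RNA, and no p is given.

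The other genes of methylation turnover stayed mostly inside 1.5-fold. The lists held methyltransferase cofactors, methyl-CpG readers, repair of modified cytosine, TET partners, 2-oxoglutarate enzymes and the S-adenosylmethionine cycle. In neutrophil-like cells 9 of their genes were eligible and 1 passed, Gadd45b, a stress-induced gene linked to active demethylation, at 882 against 567.5 CPM and a ratio of 1.55 (1.52 to 1.59). Of all eligible genes 4.57% passed in this class. Its relative Gadd45a was at 419 against 295 CPM, and Nfkbiz, which encodes an NF-kB family protein known to bring TET2 to the Il6 gene, at 1236 against 836 CPM. With TMM scaling both passed as well, at log2 ratios of 0.66 and 0.73, when 102 of all eligible genes passed upwards in place of 49. Usp7, which encodes a deubiquitinase that steadies DNMT1, was at 48.5 against 68.2 CPM. In immature neutrophil-like cells Nfkbiz passed the rule at 255 against 157 CPM, but not with TMM scaling, at a log2 ratio of 0.50. Of G2/M phase genes 11 of 13 passed there upwards with a median of 0.67 against 0.16 for all eligible genes, of which 4.37% passed upwards in this class. With TMM 3 of 13 passed upwards, with a median of 0.51 against -0.006 for all eligible genes. Under TMM 22 of all eligible genes passed upwards in this class, in place of 92. Of S phase genes 0 of 10 passed. In macrophage-like cells, where 2.34% of all eligible genes passed, Gadd45g did so at 134 against 69.3 CPM. In B cell-like cells, where 2.40% passed, Gadd45b did so at 337 against 218.5 CPM and Nfkbiz at 355 against 228 CPM. In NK cell or ILC-like cells, where 5.81% passed, Gadd45b did so at 249.4 against 150.3 CPM, on 177 and 188 UMIs. Cebpa, which encodes a myeloid transcription factor that binds TET2, was the only gene of these lists past the rule downwards in the 8 classes. It was at 38.7 against 79.5 CPM in monocyte-like cells, where 1.31% of eligible genes passed downwards. In dendritic-like cells it was at 32.7 against 64.2 CPM, where 1.81% of eligible genes passed and 0.906% did so downwards.

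In monocyte-like cells 4 of 10 eligible S phase genes and 8 of 12 eligible G2/M genes passed the rule upwards, with median log2 ratios of 0.55 and 0.65 against 0.04 for all eligible genes. Of all eligible genes in this class 3.06% passed in either direction and 1.75% upwards. Tyms, for thymidylate synthase, was at 71.9 against 39.1 CPM, and Mki67, for the proliferation marker Ki-67, at 331 against 177 CPM. Their levels within the cluster led by Stmn1 were alike, as S phase genes summed to 1938 and 1979 CPM and G2/M genes to 4482 and 4479 CPM there. In the larger cluster led by Fn1, S phase genes summed to 190 and 175 CPM and G2/M genes to 122 and 70.0 CPM, and in the cluster led by Ace to 208 and 210.3 CPM and to 64.1 and 52.5 CPM. Enzymes that make or use 2-oxoglutarate, the co-substrate of the TET proteins, had 0 of 7 eligible members past the rule in monocyte-like cells, with Idh1 at 112 against 93.2 CPM and Idh2 at 53.5 against 43.9 CPM. Of the S-adenosylmethionine cycle, which supplies the methyl group for the DNMT enzymes, 0 of 2 passed there, with Mat2a at 87.2 against 84.2 CPM and Mat2b at 62.0 against 69.1 CPM.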

How the data were processed

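The deposited files hold raw UMI counts per gene and barcode, one matrix per library, with empty barcodes included. Per the submitters' processing notes the authors used mm10 and Cell Ranger 6.1.2, while the matrix header names Cell Ranger 4; other steps are not given in the sources used here. Barcodes with at least 500 UMIs, at least 250 genes and at most 10% mitochondrial UMIs were kept. Scrublet marked 0 and 346 cells; a caller that marks none in a library of this size was taken as not working, so no doublets were removed. Clusters came from 2000 variable genes, 30 principal components, 20 neighbours and Leiden clustering at resolution 1 (scanpy 1.11.5, leidenalg 0.10.2), with the 6 genes, Xist, Tsix, Y-linked, haemoglobin, mitochondrial and ribosomal genes left out, and gave 29 clusters. Of 17 marker lists, the best scoring one named a cluster, given at least 3 markers detected in 10% of cells at a log2 excess of 0.5. Clusters stayed unnamed if another list had more markers in the top 10 genes, if they were shallow, or if gland secretory genes led. UMIs were summed per class and library. Levels carry exact Poisson, ratios exact conditional binomial and shares Clopper-Pearson intervals. Genes were eligible at 50 CPM in either library and 100 UMIs over both; log2 ratios used a pseudocount of 10 CPM. Named genes are the 6, Uhrf1, the 3 genes most like each abundant member, and up to 4 members of each list by absolute log2 ratio at 50 CPM or more; some of these are printed. Class contrasts between immature neutrophil-like and other cells average the log2 values of both libraries. Clusters named one by one were chosen after their values were seen. Of the alternatives, 5 were chosen after seeing the data: leaving out the cluster led by Elane, the cluster led by Cxcl9 or shared barcodes, Y-carrying cells of both libraries, and Xist-carrying against Y-carrying cells weighted alike. The script was tested on simulated data. The genes and lists were chosen with earlier results of these data known.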

Additional observations from a re-analysis of the deposited data

How the results depend on the processing

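No paired analysis was possible because each group is 1 library. Of 552 log2 ratios between libraries under other settings, 452 stayed within the counting interval of the reported value, and of 304 class contrasts 228 did; the cause of the others was not tested. Tet2 over all kept cells (0.23) gave 0.27 thinned to 1000 UMIs, 0.11 with free RNA of barcodes with 51 to 200 UMIs subtracted, 0.11 for Xist-carrying against Y-carrying cells, 0.28 without the clusters led by Stmn1 and Elane and 0.082 in Y-carrying cells. Tet2 in neutrophil-like cells (0.35) gave 0.55 with libraries clustered alone, 0.51 with TMM, 0.53 with median-of-ratios scaling, 0.28 thinned, 0.24 with clusters weighted alike, -0.004 for Xist-carrying against Y-carrying cells, 0.20 for these weighted alike and 0.60 in Y-carrying cells. Dnmt1 in immature neutrophil-like cells (0.59) gave 0.43 with TMM and with median-of-ratios scaling, 0.85 thinned, 0.22 with clusters weighted alike, 0.15 without the cluster led by Elane, 0.21 for Xist-carrying against Y-carrying cells weighted alike, and turned to -0.24 in Y-carrying cells, of which 10 were in 10% Tet2-/- BMT. Dnmt1 in monocyte-like cells (0.42) gave 0.21 thinned, 0.087 without the cycling cluster, with or without the cluster led by Elane, -0.028 with clusters weighted alike, -0.022 for Xist-carrying against Y-carrying cells weighted alike and -0.43 in Y-carrying cells, 24 of them in 10% Tet2-/- BMT.

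The contrasts of Tet2 and Dnmt1 between immature and other neutrophil-like cells, and of Dnmt3a between macrophage-like and neutrophil-like cells, kept their sign. Tet2 of immature over other neutrophil-like cells (-1.52) gave -1.70 and -1.38 at resolutions 0.5 and 2, -1.67 as a mean of per-cell CPM, -1.75 thinned, -2.28 and -2.83 with free RNA of 1 to 50 and of 51 to 200 UMIs subtracted and -1.73 with a pseudocount of 1 CPM. Dnmt1 (2.32) gave 2.11 at resolution 0.5, 2.10 with libraries clustered alone, 2.01 per cell, 1.77 thinned, 3.1 and 3.06 with free RNA subtracted, 3.49 with a pseudocount of 1 CPM, 2.08 with unnamed clusters added and 0.66 without the cluster led by Elane. Dnmt3a of macrophage-like over neutrophil-like cells (1.45) gave 1.27 per cell, 1.83 thinned, 1.77 and 2.27 with free RNA subtracted and 1.88 with a pseudocount of 1 CPM. Tet3 of dendritic-like over neutrophil-like cells (0.66) turned to -0.017 thinned. The number of genes past 1.5-fold ranged from 28 to 374 (84 as reported) over all kept cells, 49 to 323 (100) in neutrophil-like, 44 to 645 (106) in immature neutrophil-like, 47 to 366 (91) in monocyte-like, 59 to 375 (65) in macrophage-like and 29 to 995 (48) in dendritic-like cells. With TMM the share of passing genes that were higher in 10% Tet2-/- BMT went from 49.0% to 77.3% in neutrophil-like, from 86.8% to 44.0% in immature neutrophil-like and from 50% to 60.9% in dendritic-like cells. Depth limits Tet1 and Dnmt3b everywhere.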
